A study of Homo sapiens with 40 samples.

Results

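The genes described here encode the proteins of the human mitochondrial ribosome. Members were all protein-coding genes in the count tables with an MRPL or MRPS symbol followed by a number and at most 1 letter, which gave 78 of 60279 listed genes and of 19550 protein-coding genes. The values come from single cells of T47D, a luminal human breast cancer cell line, grown to passage 10 and sorted into wells as EpCAM+ CD49f+ cells. They were sequenced by Genome & Transcriptome sequencing (G&T, a non-commercial protocol that separates RNA from DNA), the SMART-seq HT kit (Takara) or the NEBNext Single Cell/Low Input kit (NEB). All cells were of the same line, no treatment is given for any of them, and the groups are labelled by library protocol. By the paper, each protocol had its own lysis buffer, and NEB had more PCR cycles and another final library kit. After removal of 7 of 40 wells, 11 cells per protocol were used. Cells were sequenced in groups by protocol, so the sequencing group cannot be told apart from the protocol. Whether the cells came from 1 culture was not given in the sources used here. The cells are not replicates of a protocol, and no p-value is given. The spread between cells is given instead.

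Mitochondria keep a small genome that encodes core subunits of the respiratory chain, and a dedicated ribosome inside the organelle translates them. Its rRNAs come from the mitochondrial genome (MT-RNR1 and MT-RNR2), while every protein is encoded in the nucleus, made in the cytosol and imported. Some of these proteins have relatives in bacterial ribosomes and others were added during the evolution of mitochondria. By structure, 51 members belong to the large subunit, which forms the peptide bond, and 26 to the small subunit, which reads the mRNA. Of the large subunit members 29 are of the bacterial type and 22 are specific to mitochondria, and the small subunit has 16 and 10. MRPS30 and MRPS18A sit in the large subunit in spite of their symbols. MRPS36 is counted in neither, since its protein is part of the α-ketoglutarate dehydrogenase complex.

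The members lie on 21 chromosomes, with at most 8 on 1 of them (chromosomes 1, 2 and 17). In the GENCODE 44 annotation of GRCh38, 27 of 78 members (34.6%) had a protein-coding gene on the opposite strand whose start lay within 1000 bases, head to head. The share was 20.4% among protein-coding genes past the filter on low levels described below, and 38.8% among 80 nuclear genes of oxidative phosphorylation (OXPHOS), the respiratory chain and ATP synthase. MRPL46 and MRPS11 faced each other, and MRPL47 and MRPL36 each faced a gene of respiratory complex I (NDUFB5 and NDUFS6). The stretches between the annotated starts of these 3 pairs are shown because one short piece of DNA separates both genes. They are from RefSeq promoter windows (GRCh38.p14), read 5′ to 3′ on the strand of the first gene, with the ETS letters CCGGAAG in capitals where present.
MRPL46 and MRPS11 (chr15:88467391-88467452, - strand): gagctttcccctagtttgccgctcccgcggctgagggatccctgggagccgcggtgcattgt
MRPL47 and NDUFB5 (chr3:179604650-179604689, - strand): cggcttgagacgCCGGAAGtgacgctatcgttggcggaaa
MRPL36 and NDUFS6 (chr5:1801367-1801406, - strand): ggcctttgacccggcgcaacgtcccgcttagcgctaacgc
The ETS letters were found in 1 of these 3 stretches.

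RefSeq promoter windows, from 250 bases before to 50 bases after the start, were matched by symbol for 69 of 78 members. The letters of the YY1 motif, printed in capitals further on and searched on both strands, were in the windows of 10 of 69 members (14.5%), against 2.94% of protein-coding genes past the filter and 1.63% of all protein-coding genes with a window. YY1 is a zinc finger transcription factor. The ETS letters CCGGAAG, the core recognised by GABPA and its relatives, were in 30 windows (43.5%), against 25.6% past the filter and 16.8% of all. The 10 letters of the palindromic NRF1 motif were in 1 member window (1.45%, against 3.11% past the filter). TATAAA was in 3 (4.35%, against 7.56%) and the CCAAT box letters GATTGG in 13 (18.8%, against 25%). A match describes these letters only. The ETS motif ends with the AAG that begins the YY1 motif, so that 1 run can hold both. None of the YY1 stretches printed below holds the ETS letters, and the window of MRPL22 does not hold them either.

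The YY1 letters are shown in capitals for 9 members, on the strand that carries them, with 9 bases on either side. MRPL22 also held them but too close to the window's edge for this stretch.
MRPL36 (chr5:1799856-1799884, + strand): ccaggaaggAAGATGGCGGCggggggggg
MRPL38 (chr17:75904859-75904887, - strand): gccggagggAAGATGGCGGCgccctggtg
MRPL46 (chr15:88467361-88467389, - strand): ggagaacgaAAGATGGCGGCgcccgtaag
MRPL50 (chr9:101398576-101398604, - strand): atctcatcgAAGATGGCGGCgcgatctgt
MRPS10 (chr6:42217833-42217861, - strand): gggaccggcAAGATGGCGGCgcggacagc
MRPS18A (chr6:43687763-43687791, - strand): aggtttttgAAGATGGCGGCcctcaaggc
MRPS18B (chr6:30617854-30617882, + strand): gcgtacgtcAAGATGGCGGCgtctgtatt
MRPS24 (chr7:43869479-43869507, - strand): gcttggcccAAGATGGCGGCctccgtgtg
MRPS30 (chr5:44808951-44808979, + strand): tcgcgggcaAAGATGGCGGCggccaggtg
In 8 of these 9 members the letters were on the gene's own strand, between 7 and 24 bases from the start counted as position 1. In these 8 the ATG inside the letters was an annotated start codon of the member. In MRPL36 they lay on the opposite strand, before the start used for its RefSeq window. That start is inside the gene as GENCODE annotates it (chromosome 5, 1798385 to 1801366), whose own start borders the stretch shared with NDUFS6.

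Reads on genes ranged from 658154 to 1166633 per G&T cell, from 818512 to 1287911 per Takara cell and from 624772 to 963816 per NEB cell. The kept cells carried 9541 to 12794, 10624 to 11855 and 4416 to 6719 detected genes. ERCC spike-ins took 1.37 to 2.75%, 0.538 to 1.33% and 5.66 to 18.9% of the library. Of 8 luminal markers, 6 (KRT8, KRT18, KRT19, GATA3, ESR1 and PGR) had reads in every kept cell, and EPCAM and FOXA1 were each without a read in 1 NEB cell. Of 7 immune, endothelial and stromal markers, CD3E and LYZ had no read, PTPRC had 2 reads in 1 G&T cell, and PECAM1 (12 reads) and VWF (16 reads) were each seen in 2 G&T cells. COL3A1 had 19 reads in 2 NEB cells, and COL1A1 had reads in 9 NEB cells, 10 Takara cells and 11 G&T cells, at pooled levels of 10.8 to 12.6 CPM.

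Nearly the whole set was found in single G&T and Takara cells, and fewer members were found in NEB cells. A G&T cell had reads on 75.8 ± 1.40 of 78 members (mean ± SD, n = 11 cells; 73 to 78), a Takara cell on 76.5 ± 1.29 (74 to 78) and a NEB cell on 58.5 ± 6.25 (49 to 71). Every NEB cell was below every cell of the other protocols. Thinned to the same number of reads, the means were 75.4, 75.9 and 58.4. A read was present in all 11 G&T cells for 70 members, in all Takara cells for 74 and in all NEB cells for 27. Among genes past the filter on low levels the corresponding shares were 56.3%, 66.5% and 14.05%, against 94.6%, 100% and 36.5% of the 74 members past it. In NEB cells 61 of 76 OXPHOS genes past the filter and 27 of 74 members past it were found in every cell, and these lists were not matched for level. Reads in all 33 kept cells were seen for 25 members.

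In the share of reads on members the protocols overlapped. Members took 0.860 ± 0.166% of the reads on genes of a G&T cell (SD, n = 11; 0.656 to 1.17%), 1.14 ± 0.102% of a Takara cell (0.949 to 1.29%) and 1.03 ± 0.127% of a NEB cell (0.835 to 1.30%). The most abundant member took 12.4 ± 3.61% of the member reads of a NEB cell, 6.88 ± 1.22% for G&T cells and 4.29 ± 0.255% for Takara cells. It was MRPL42 in 11 of 11 NEB cells, MRPS16 in 7 of 11 G&T cells and MRPS18B in 6 of 11 Takara cells. Against the spike-ins the order differed, since members had 0.471 ± 0.105 reads per ERCC read among G&T cells, 1.27 ± 0.396 among Takara cells and 0.0875 ± 0.0373 among NEB cells. Mitochondrial rRNA, the partner of these proteins, made up 9.49 ± 3.30% of reads on genes among G&T cells, 2.18 ± 0.450% among Takara cells and 0.405 ± 0.128% among NEB cells.

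**Figure D1:**
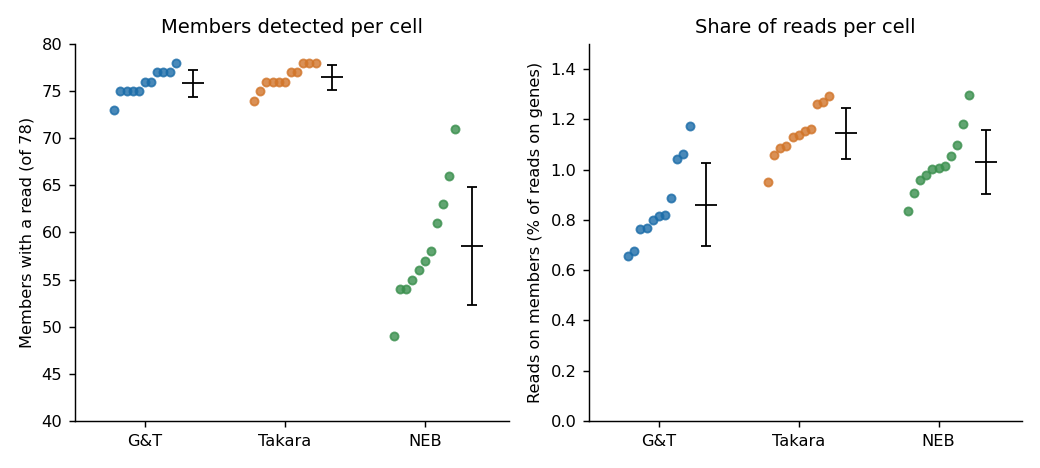
Number of the 78 members with a read (left, axis from 40) and share of reads on genes that fell on members in percent (right) for the 11 kept cells of each protocol. Points are cells and black bars are the mean ± SD. All NEB cells lie at 49 to 71 members, below the 73 to 78 of the other cells, while the shares of reads overlap.

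Levels are given as CPM (the reads of a gene per 1000000 reads on genes) pooled over the 11 cells of a protocol, with an exact 95% Poisson interval that covers counting error only. Between genes they are compared per kb of the union of exons. By the mean of the 3 protocols on this scale, MRPL41 (a mitochondria-specific large subunit protein) had the highest level at 282 CPM per kb. It was followed by MRPL14 (245 CPM per kb), the site where the assembly factor MALSU1 docks, MRPL47 (216 CPM per kb), which lies near the exit of the peptide tunnel, MRPS18B (206 CPM per kb) and MRPS34 (197 CPM per kb), both of the small subunit. The order depended on the length used. Per kb of canonical transcript, MRPL27 (468 CPM per kb) and MRPL13 (354 CPM per kb) came first and MRPL41 was in place 3. MRPL41, MRPL14, MRPL47, MRPS18B and MRPS34 stayed among the first 10 on both scales.

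The pooled MRPL47 level was nearly equal in the 3 protocols, with G&T at 287 CPM (276 to 298), Takara at 310 CPM (300 to 320) and NEB at 289 CPM (277 to 301). MRPL41 had a pooled level of 277 CPM in G&T, 137 CPM in Takara and 77.8 CPM in NEB. Its G&T cells ran from 68.1 to 816 CPM with a median of 150 CPM, and a few of them lay far above the 88.9 to 190 CPM of the Takara cells. Without the G&T cells D2, E2 and H1 its pooled G&T level was 133 CPM and its mean level per kb 199 CPM per kb, place 4 after MRPL14, MRPL47 and MRPS18B.

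At the low end, 4 members missed the filter of a mean pooled level of 5 CPM. MRPS24 had 0.737, 1.11 and 0.376 CPM in G&T, Takara and NEB, and reads in 4, 6 and 2 cells. MRPL23 had 2.11 and 1.54 CPM in G&T and Takara and no read in 11 NEB cells, which allows a level of up to 0.376 CPM. MRPL38 had 3.79, 1.71 and 0.125 CPM, and MRPL53 had 3.05, 1.19 and 2.51 CPM. Of the MRPL53 exons 99.4% were covered by exons of other genes on either strand, and of MRPL38 45.1%. A read there cannot be given to 1 gene without the strand, and where the exons share a strand not with it either. In all, 13 members had over 25% of their exons covered in this way, among them MRPL12 (69.5%), MRPS18A (50.9%), MRPS25 (45.9%) and MRPS34 (31.2%), and the strand setting of the counts was not stated. MRPS25 and MRPS24 were also among the 5 members with the lowest level per kb, at 3.04 and 0.284 CPM per kb.

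**Figure D2:**
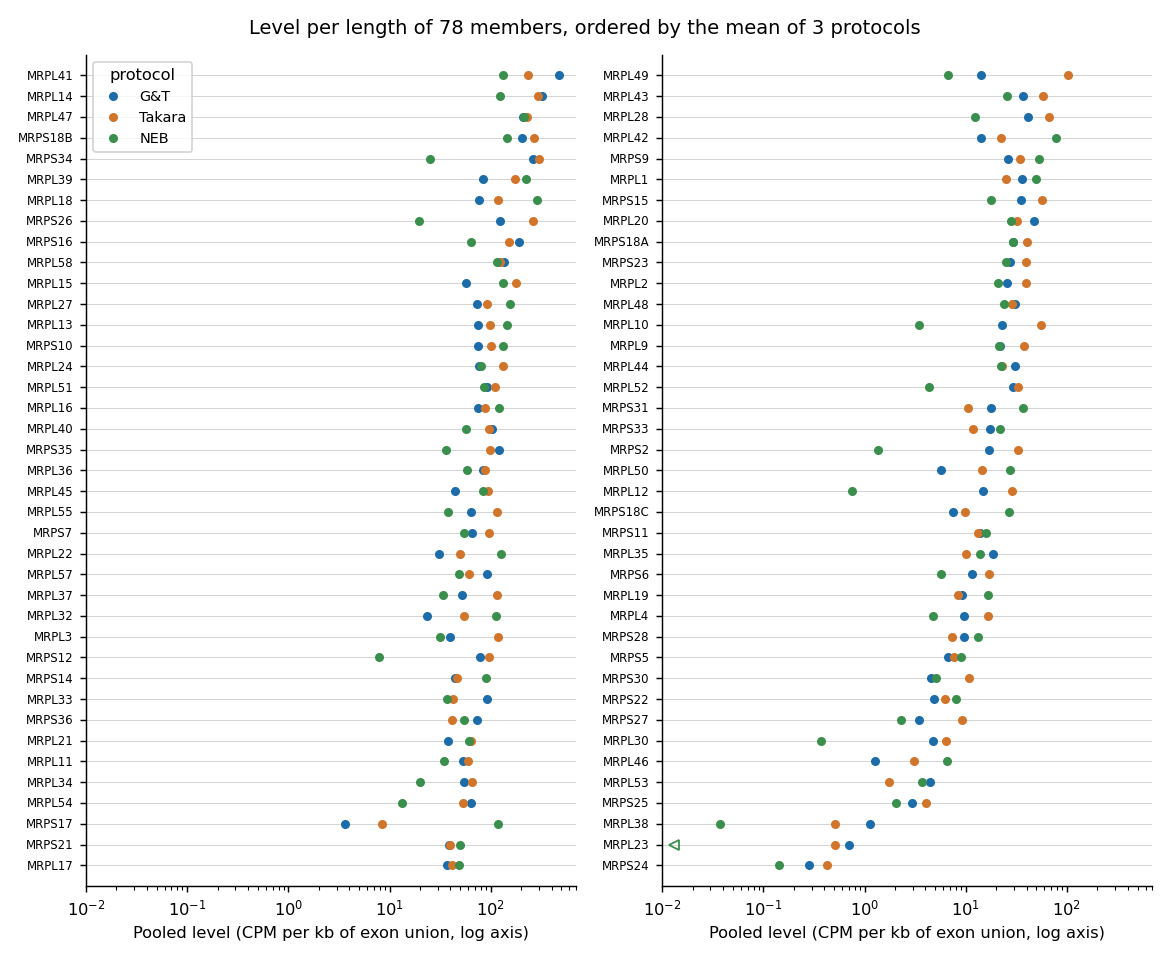
Pooled level of each of the 78 members in CPM per kb of exon union (log axis) in G&T, Takara and NEB, 1 point per protocol, ordered by the mean of the protocols from high (top of the left panel) to low. The open triangle marks MRPL23 in NEB, which had no read. MRPS17 stands out with its NEB level far to the right of the other protocols, and MRPS2 and MRPL12 with theirs far to the left.

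For the comparisons of protocols, log2 ratios of pooled CPM with 1 CPM added were taken over 74 members past the filter and over 9831 genes. A member was counted as higher or lower at 2-fold or more. Adding 1 CPM understates the ratio of low genes. Scaling by edgeR's TMM or DESeq2's size factors moved the median of all genes by up to -0.225 for G&T over NEB, and by at most -0.117 for the other pairs.

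Between G&T and Takara, members were on the whole somewhat lower in G&T. The median log2 ratio was -0.38, against -0.07 for all genes. In G&T 2 members were higher by 2-fold, where 18.2% of all genes were, and 14 of 74 were lower (18.9%, where 19.2% of all genes were). Ribosomal proteins of the cytosol went the other way, with 50 of 81 higher in G&T and a median log2 ratio of 1.20. MRPL49, a mitochondria-specific large subunit protein encoded next to FAU on chromosome 11 (65122183 to 65127371), differed most. Its cells ran from 9.12 to 101 CPM (median 30.4) in G&T and from 162 to 510 CPM (median 288) in Takara, with pooled levels of 43.5 and 314 CPM. It was the only member past the filter in which no G&T cell reached a Takara cell, as was the case for 1.88% of all genes. In 0 members was every G&T cell above every Takara cell (0.977% of all genes). MRPL15 had a pooled level of 102 CPM in G&T and 318 CPM in Takara, and MRPL3, which reaches towards the peptidyl transferase centre, had 107 and 320 CPM. The cells of both overlapped between the protocols. MRPL33 (140 and 64.9 CPM) and MRPL41 (277 and 137 CPM) were the 2 members higher in G&T, and neither was past 2-fold with DESeq2's size factors or with the mean of single cells. They were followed by MRPL35 (71.4 and 38.7 CPM), which stayed under 2-fold. Both calls rested on few cells, since without G&T cell H1 the ratio fell from 2.13 to 1.71 for MRPL33 and from 2.01 to 1.57 for MRPL41. The 3 G&T cells with the highest levels of both genes (D2, E2 and H1) are those that stand apart in OXPHOS share, described further on. Without these 3 cells the ratios were 1.05 and 0.968. The median log2 ratio of members was then -0.58, with 14 members lower by 2-fold and 0 higher. For all genes without these cells the median was -0.020, with 16.2% lower and 20.8% higher. In MRPL33 the G&T cells ran from 41.6 to 386 CPM and spanned the whole Takara range of 46.4 to 107 CPM.

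Between G&T and NEB, members went both ways. The median log2 ratio was 0.26, against 0.47 for all genes. In G&T 17 of 74 members were higher by 2-fold (23.0%, against 40.6% of all genes) and 13 were lower (17.6%, against 21.1%). With DESeq2's size factors 16 were higher and 18 lower and the median was 0.029, against 0.245 for all genes. With TMM 16 were higher and 16 lower. Without the G&T cells D2, E2 and H1 the median was 0.031, with 16 higher and 17 lower. For all genes the median was then 0.554, with 42.1% higher and 20.1% lower. MRPS34, a small subunit protein on chromosome 16 (1771890 to 1773150), ran from 92.7 to 594 CPM (median 264) in G&T, from 209 to 523 CPM (median 352) in Takara and from 0 to 91.5 CPM (median 9.34) in NEB. The NEB cells lay below all other cells, and 4 of 11 had no read. MRPS2, on chromosome 9, had reads in 11 G&T cells and 2 NEB cells and pooled levels of 41.9 CPM (37.9 to 46.2) and 3.39 CPM (2.23 to 4.93). MRPS12, a protein of the decoding site, had reads in 11 and 3 cells and pooled levels of 139 and 13.9 CPM. Single NEB cells carried these low levels. Without NEB cell A1 the ratio of G&T over NEB rose from 9.78 to 25.5 for MRPS2 and from 9.38 to 23.6 for MRPS12.

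In the other direction, MRPS17, a small subunit protein of the bacterial type on chromosome 7 (55951877 to 55956500), ran from 0 to 22.9 CPM (median 5.25) in G&T, from 4.04 to 34.2 CPM (median 21.7) in Takara and from 15.2 to 575 CPM (median 248) in NEB. Of its exons 25% were shared with other genes. The lowest NEB cell fell within the range of the other protocols. MRPL42, on chromosome 12 (93467514 to 93516214), ran from 123 to 310 CPM (median 219) in G&T, from 164 to 563 CPM (median 387) in Takara and from 681 to 1940 CPM (median 1255) in NEB. Every NEB cell was above every other cell. MRPL32, which is cut by a mitochondrial protease before it joins the ribosome, had pooled levels of 78.5 CPM in G&T, 183 CPM in Takara and 376 CPM in NEB. Without overlap between cells of G&T and NEB, 2 members were higher in G&T (MRPS16 and MRPS34, 2.70% against 4.83% of all genes) and 4 lower (MRPL13, MRPL18, MRPL22 and MRPL42, 5.41% against 1.55%).

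Between Takara and NEB the median log2 ratio was 0.39, against 0.43 for all genes. In Takara 24 of 74 members were higher by 2-fold (32.4%, against 40.9% of all genes) and 8 were lower (10.8%, against 23.5%). MRPS2 (80.7 CPM in Takara and 3.39 CPM in NEB), MRPL12 (28.8 and 0.752 CPM) and MRPL49 (314 and 20.6 CPM) were the highest in Takara. Without NEB cell A1 the MRPS2 ratio rose from 18.6 to 48.5, without NEB cell G2 the MRPL12 ratio rose from 17.0 to 26.3, and without NEB cell E2 the MRPL49 ratio rose from 14.6 to 22.4. MRPS17 (17.8 and 250 CPM), MRPL42 (363 and 1268 CPM) and MRPS31 (22.8 and 78.6 CPM) were the lowest. Takara and NEB cells did not overlap in 5 members that were higher in Takara (MRPL12, MRPL49, MRPS2, MRPS26 and MRPS34, 6.76% against 11.3% of all genes) and 2 that were lower (MRPL22 and MRPL42, 2.70% against 2.22%). Leaving out 1 cell moved the ratio by over 1.5 times for 11 of 74 members in each comparison with NEB and for 0 in G&T over Takara. Leaving out some single cell changed the 2-fold call of 15 members in G&T over NEB, 13 in Takara over NEB and 10 in G&T over Takara.

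**Figure D3:**
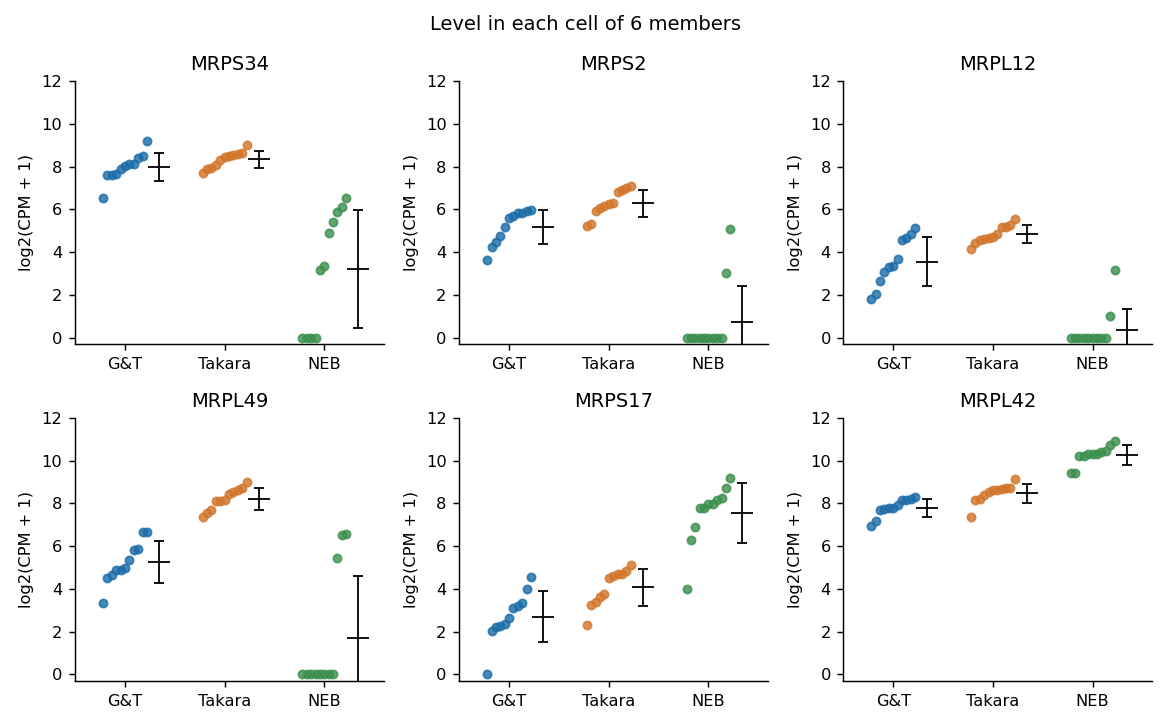
Level of MRPS34, MRPS2, MRPL12, MRPL49, MRPS17 and MRPL42 in each kept cell as log2(CPM + 1), with 11 cells per protocol as points and the mean ± SD of the log2 values as black bars. MRPS34 is lower in every NEB cell and MRPL42 higher in every NEB cell than in any other cell, and NEB cells without a read lie at 0.

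The ratios against NEB ran with the base composition of the transcripts. GC content of the canonical transcript ranged from 34.8 to 66.7% over the members past the filter. Across these 74 members, Spearman's rho of GC with the log2 ratio was 0.58 for G&T over NEB (Pearson's r 0.57), 0.66 for Takara over NEB (r 0.63) and -0.22 for G&T over Takara (r -0.18). All points share the same pooled libraries, and genes are not independent replicates. The same coefficients over 9325 protein-coding genes were 0.63, 0.65 and -0.18, close to those of the members. Above the middle GC value of 48.0%, the median log2 ratio of 37 members was 0.73 against NEB in G&T and 0.88 in Takara, where 4323 protein-coding genes had medians of 1.95 and 2.19. At or below it, that of the other 37 members was -0.40 and -0.37, and 5002 protein-coding genes had -0.41 and -0.50. For transcript length rho among the members was -0.20 with the ratio of G&T to NEB, -0.15 with that of Takara to NEB and -0.10 with that of G&T to Takara. Over all protein-coding genes past the filter it was -0.12, -0.30 and 0.40. The median transcript was 1242 bases long among all 78 members and 3366 bases among those genes.

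The first 90 bases of the coding sequence are shown for the 3 members with the highest and the 3 with the lowest ratio of G&T over NEB, because base composition ran with this ratio. They are from the canonical GENCODE 44 transcripts, with every G and C in capitals.
MRPS34: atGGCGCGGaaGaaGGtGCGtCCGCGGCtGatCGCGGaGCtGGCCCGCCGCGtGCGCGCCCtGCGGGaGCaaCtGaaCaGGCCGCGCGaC
MRPS2: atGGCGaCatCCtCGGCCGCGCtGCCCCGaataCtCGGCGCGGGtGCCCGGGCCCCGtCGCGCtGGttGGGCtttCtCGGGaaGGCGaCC
MRPS12: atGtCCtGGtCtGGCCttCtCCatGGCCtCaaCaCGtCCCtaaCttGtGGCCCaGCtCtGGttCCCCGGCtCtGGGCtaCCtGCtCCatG
MRPS17: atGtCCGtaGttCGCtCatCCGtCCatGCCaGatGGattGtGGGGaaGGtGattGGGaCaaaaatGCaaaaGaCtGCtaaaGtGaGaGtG
MRPL42: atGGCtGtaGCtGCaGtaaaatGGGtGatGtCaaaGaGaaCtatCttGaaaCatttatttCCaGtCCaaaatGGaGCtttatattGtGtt
MRPL32: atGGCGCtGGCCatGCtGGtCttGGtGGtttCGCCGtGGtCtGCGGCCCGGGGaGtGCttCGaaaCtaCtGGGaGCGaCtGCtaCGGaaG
G and C made up 67, 66 and 55 of the 90 bases in MRPS34, MRPS2 and MRPS12, which were higher in G&T. They made up 43, 32 and 57 in MRPS17, MRPL42 and MRPL32, which were higher in NEB. Over the whole coding sequence GC was 67.0, 61.7 and 65.2% in the first 3 and 45.4, 39.9 and 51.4% in the last 3. MRPS17 lay far below other members of like GC in both comparisons with NEB.

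**Figure D4:**
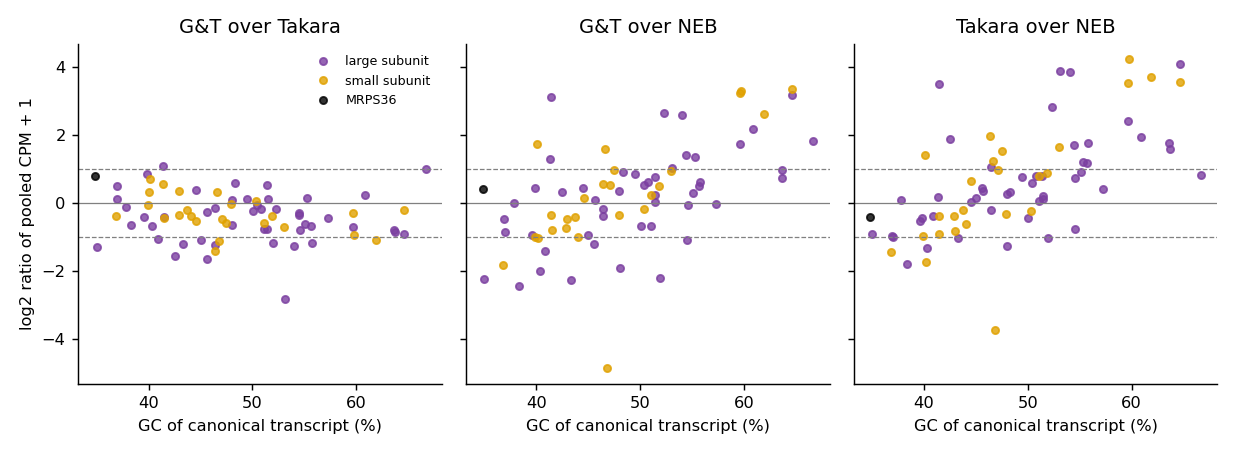
Log2 ratio of pooled CPM + 1 between 2 protocols against the GC content of the canonical transcript in percent, for the 74 members past the filter, with large subunit members in purple, small subunit members in yellow and MRPS36 in black. Dashed lines mark 2-fold. Points rise from left to right in both comparisons with NEB (rho 0.58 and 0.66) and not in G&T over Takara.

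The balance of the subunits was compared by the mean level per kb of their members in each cell. Large subunit members had 1.11 ± 0.137 times the mean level of small subunit members in G&T cells (SD, n = 11; 0.922 to 1.32), 1.09 ± 0.10 times in Takara cells (0.973 to 1.23) and 1.58 ± 0.125 times in NEB cells (1.35 to 1.73). Every NEB cell was above every other cell. The difference rested on members with high levels. With the median member in place of the mean, the ratios were 1.89 ± 0.478, 1.99 ± 0.357 and 1.79 ± 0.420, and the ranges overlapped. With canonical transcript lengths they were 1.31 ± 0.188, 1.28 ± 0.109 and 1.87 ± 0.218, and the lowest NEB cell (1.33) lay within the range of G&T (1.06 to 1.59). The 10 mitochondria-specific members of the small subunit took 9.14% of pooled member reads in NEB, against 17.2% in G&T and 17.0% in Takara. MRPS34 and MRPS26 are 2 of them, and MRPS26 had pooled levels of 125, 267 and 19.7 CPM. The 29 large subunit members of the bacterial type took 38.0%, 39.7% and 45.6%.

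The stalk of the large subunit, which recruits translation factors, is built from MRPL12 on MRPL10, with MRPL11 at its base. MRPL12 and MRPL10 had reads in all G&T and Takara cells and in 2 NEB cells each, while MRPL11 had reads in 9 NEB cells. The pooled MRPL10 level was 62.6 CPM in G&T, 153 CPM in Takara and 9.66 CPM in NEB, and that of MRPL11 was 136, 152 and 87.4 CPM. Without NEB cell G2 the ratio of Takara over NEB rose from 14.4 to 36.0 for MRPL10. MRPL45, which faces the inner membrane at the tunnel exit, had pooled levels of 75.4, 160 and 144 CPM. MRPL44, which carries a domain related to RNase III, had 51.4, 38.9 and 37.7 CPM. MRPL58, a peptidyl-tRNA hydrolase built into the ribosome, had 150, 137 and 127 CPM and differed little between the protocols.

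The MRPS18 paralogues hold 3 separate places in the ribosome. MRPS18B was the most abundant of them per kb, with G&T at 205 CPM per kb, Takara at 267 CPM per kb and NEB at 145 CPM per kb. MRPS18A, in the large subunit, had 29.3, 39.9 and 29.5 CPM per kb. MRPS18C had 7.42, 9.79 and 26.8 CPM per kb and was the only one of the 3 that was lower by 2-fold in G&T and in Takara than in NEB. MRPS30 had pooled levels of 27.8, 66.6 and 31.7 CPM, and MRPS36 had 113, 64.3 and 85.5 CPM. The head-to-head genes MRPL46 and MRPS11 did not share a pattern. MRPL46 had 8.21, 19.8 and 41.4 CPM in G&T, Takara and NEB, whereas MRPS11 had 78.2, 74.9 and 88.3 CPM.

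**Figure D5:**
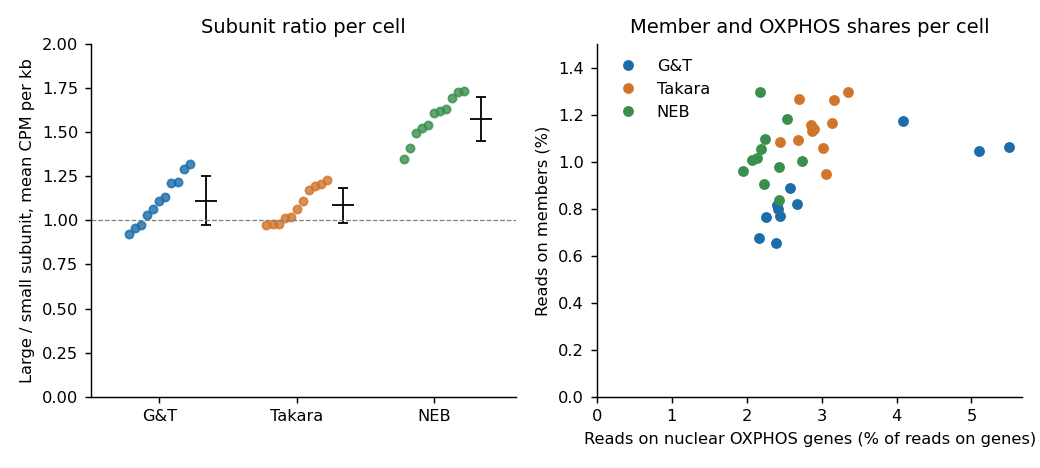
Ratio of the mean level per kb of large to small subunit members in each kept cell (left; black bars are mean ± SD) and share of reads on members against share of reads on nuclear OXPHOS genes in percent (right), 11 cells per protocol. NEB cells have the higher subunit ratios (1.35 to 1.73), and 3 G&T cells lie apart at OXPHOS shares above 4%.

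The median coefficient of variation of CPM over cells was 53.6% for 74 members in G&T (77.4% for all genes past the filter), 27.4% in Takara (57.3%) and 80.4% in NEB (160%). OXPHOS genes had median coefficients of 53.3%, 20.4% and 42.1%, so in NEB the members varied more than these. The median squared coefficient above counting error in NEB was 0.630 for members and 0.173 for OXPHOS genes. These lists were not matched for level. Members were ranked by the part of the squared coefficient above counting error, and their total coefficients of variation are given in brackets. In G&T that part was largest for MRPL41 (100%), MRPL33 (91.7%) and MRPL36 (87.7%). In Takara it was largest for MRPL35 (54.4%), MRPL44 (51.0%) and MRPS17 (52.4%). In NEB it was largest for MRPS2 (273%), MRPL12 (292%) and MRPL10 (260%), each with reads in 2 NEB cells.

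Across the cells of a protocol the share of reads on members was set beside that on OXPHOS genes. The shares on cytosolic ribosomal protein genes, mitochondrial mRNA and mitochondrial rRNA were set beside it as well. In G&T, 3 cells stood apart with 4.08 to 5.50% of reads on OXPHOS genes and 1.04 to 1.17% on members, whereas the other 8 had 2.16 to 2.68% and 0.656 to 0.887%. The same 3 cells had 14.1 to 16.3% of reads on cytosolic ribosomal protein genes (7.0 to 10.6% in the other 8), 9541 to 10831 detected genes (11102 to 12794) and 2.16 to 2.75% on ERCC spike-ins (1.37 to 2.11%). Without them the member share of G&T cells was 0.773 ± 0.0766% (SD, n = 8), and every remaining cell was below every Takara cell. The 3 cells removed held the highest G&T member shares and were chosen after seeing the data, so that separation came from their removal. Of reads outside the mitochondrial genome, G&T cell A1 (1.14%) stayed above Takara cell E2 (1.10%). The subunit ratio of the 8 cells was 1.07 ± 0.115, and their members detected were 75.4 ± 1.30. Within the 8 cells the member and OXPHOS shares had a Spearman's rho of 0.81 and a Pearson's r of 0.69. Without the 2 cells farthest from the median rho was 0.71 and r 0.59. In Takara rho was 0.35 (r 0.29) and in NEB -0.05 (r -0.03) over 11 cells each, and without the 2 farthest cells rho was 0.033 (r -0.12) and -0.23 (r -0.26). Over all 11 G&T cells the member share also rose with the reads on genes of a cell (rho 0.73, r 0.79). That rho was -0.05 in Takara and 0.08 in NEB. The relation with OXPHOS genes in G&T was not separated from depth. All of these are descriptions over cells that share a library preparation, and the shares of members and of the other lists have the same denominator.

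Other genes of mitochondrial translation were read from lists of 5 further ribosomal subunit genes, 14 translation factors and 25 assembly factors past the filter. Of the subunit genes 3 of 5 were higher by 2-fold in G&T than in NEB and 1 was lower, where 40.6% of all genes were higher and 21.1% lower. GADD45GIP1, a large subunit protein, had pooled levels of 463 CPM in G&T, 178 CPM in Takara and 5.39 CPM in NEB. CHCHD1, of the small subunit, had 389, 114 and 73.9 CPM. Of the translation factors 4 of 14 were higher by 2-fold in G&T than in NEB and 1 lower, and TACO1, an activator of COX1 translation, had 67.4, 86.2 and 1.63 CPM. Of the assembly factors 15 of 25 (60%) were higher and 1 lower, with a median log2 ratio of 1.19, against 0.47 for all genes. Their counts in Takara over NEB were 17 higher and 3 lower (40.9% and 23.5% of all genes). MRM1, an rRNA methyltransferase, had 21.5 and 42.0 CPM in G&T and Takara and no read in NEB. ERAL1, which binds the small subunit rRNA, had 82.6, 288 and 86.0 CPM, and NGRN had 19.8, 55.0 and 15.3 CPM. In G&T over Takara, 2 and 1 of the subunit genes, 2 and 1 of the translation factors and 1 and 5 of the assembly factors were higher and lower, beside 18.2% and 19.2% of all genes.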

How the data were processed

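Reads were trimmed by the authors with Trim Galore in 2 rounds and mapped with STAR to GRCh38, and the authors deposited raw read counts per gene and cell, 1 table per protocol, without normalization, molecular identifiers or filters. The strand setting and the annotation release were not given in the sources used here. The wells kept had at least 1000 genes, a library of at least 600000 reads, at most 30% mitochondrial and at most 25% ERCC reads. CPM were computed over reads on genes, which were pooled over kept cells. Genes with a mean pooled level of at least 5 CPM were compared, with 1 CPM added and a call at 2-fold. Each protocol was taken as 1 sample, so no test was made. Poisson intervals (95%), the limit of 3 reads for a count of 0 and depth cover counting error only. Gene positions, lengths and GC came from GENCODE 44, and promoter windows from RefSeq.

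Named members were those with the highest and lowest levels per kb, the 3 largest ratios in each direction and pair, the 3 largest spreads per protocol, those seen in fewest cells and a list by role. MRPL13, MRPL18, MRPL22, MRPL27, MRPS16, MRPS26, MRPL46 and MRPS11 were named after their values were seen. Members and lists were chosen with earlier results of these data known. Steps were tested on simulated data with the same spread between cells in every protocol. That spread was smaller than the median in NEB (a squared coefficient of variation above counting of 0.630 for members). The test therefore does not cover calls against NEB at the spread seen there. Alternatives covered detection, depth, denominators, scaling, pseudocount, filter, pooling, lengths and single cells. Scaling used edgeR 4.0.16 and DESeq2 1.42.0 in R 4.3.3. The rest used Python 3.11.15 with scipy 1.17.1, numpy 2.4.6, matplotlib 3.10.9 and pandas 2.3.3.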

Additional observations from a re-analysis of the deposited data

Results flagged for a closer look

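Reads on members were also present in wells and genes that entered no comparison, above the limit of 3 reads that a count of 0 allows. Of the removed wells, G&T C2 had 5150 reads on 64 members and G&T F1 had 4629 reads on 74. NEB F2 had 5526 reads on 64 members and NEB B2 had 1257 reads on 15. In the wells taken up almost wholly by ERCC spike-ins, Takara C2 (91.3% ERCC) had 13 reads on members and NEB F1 (99.7% ERCC) had 16. Pseudogenes named after members, 78 in all, had 51 reads in kept G&T cells, 18 in Takara cells and 92 in NEB cells, which is 0.0608, 0.0134 and 0.112% of the reads on members. MRPL53P1 held 68 of the 92 NEB reads, in 3 cells.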

How the results depend on the processing

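No paired analysis was possible because a well name shared by protocols names different cells and no result comes from a test. Requiring at least 5 reads lowered the members detected per cell to 72.5 in G&T and 74.1 in Takara, and all deposited wells gave 65.9 in Takara. The share of reads on members over reads outside the mitochondrial genome was 1.03% in G&T and 1.27% in Takara, and over nuclear protein-coding reads 1.19% among NEB cells, 1.05% among G&T cells and 1.29% among Takara cells. All deposited Takara wells gave 0.978%. Leaving out 1 cell gave G&T shares of 0.829 to 0.881%, Takara shares of 1.13 to 1.16% and NEB shares of 1.00 to 1.05%, and median log2 ratios of -0.45 to -0.34 for G&T over Takara, 0.09 to 0.32 for G&T over NEB and 0.29 to 0.53 for Takara over NEB. With DESeq2 size factors the median for G&T over NEB was 0.029, and without the 3 G&T cells that stand apart in OXPHOS share (chosen after seeing the data) 0.031, against 0.26 as reported. For all genes these 3 medians were 0.245, 0.554 and 0.47.

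Of the members higher by 2-fold in G&T than in Takara, 1 was left with TMM, 0 with DESeq2 size factors, 1 with a pseudocount of 5 CPM, 0 with the mean of single cells, 1 with all deposited wells and 0 without these 3 cells. At 1.5-fold 5 were higher and 28 lower in G&T than in Takara, and 26 higher and 21 lower in G&T than in NEB. In Takara 35 were higher and 16 lower than in NEB. At 3-fold 0 were higher and 2 lower in G&T than in Takara, and 12 higher and 8 lower in G&T than in NEB. In Takara 18 were higher and 3 lower than in NEB, where DESeq2 size factors gave 23 and 13 at 2-fold. The shares of all genes past 1.5-fold and 3-fold were not computed. The cause was not tested beyond the threshold itself.

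The subunit ratio (alternatives other than symbol and longest transcript were added after seeing the data) with canonical transcripts was 1.87 in NEB cells, 1.31 in G&T cells and 1.28 in Takara cells, 1.21 in Takara with the longest transcript, and with the median member 1.89 in G&T, 1.99 in Takara cells and 1.79 in NEB cells. Leaving out 1 member gave 0.976 (without MRPL41) to 1.32 (without MRPS34) in G&T, 1.02 (without MRPL14) to 1.27 (without MRPS34) in Takara and 1.46 (without MRPL18) to 1.81 (without MRPS18B) in NEB. With canonical transcripts 6 of the 10 highest members per kb were shared in G&T and 5 in Takara. The relation with OXPHOS genes in 8 G&T cells had r 0.69, and rho 0.71 without the 2 farthest cells. That with mitochondrial rRNA had rho 0.25 in Takara and -0.017 in NEB without the 2 farthest cells, from -0.20 and -0.36 over all 11. Depth limits the members at or below 3 reads, MRPL38, MRPS24 and MRPL23 in NEB.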
